A study of Mus musculus with 15 samples.

Results

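Regions where Mel18 was found both in early cardiac mesoderm precursors (MES) and in the mouse embryonic stem cells (ESCs) they were derived from, but where 1 or 2 of the PRC1 subunits Ring1b, Cbx2 and RYBP had no peak in MES, are described here. Overlapping peaks of 5 deposited ChIP-seq peak lists were merged into regions on chromosomes 1 to 19, and 558 of 11871 merged regions met this rule. The regions were therefore chosen by peak presence in all 5 lists, and which subunit is missing is a description of that choice. Both Mel18 lists had a peak in 2479 regions, called kept regions below. Of these, 558 (22.5%, exact Clopper-Pearson 95% interval 20.9 to 24.2) lacked 1 or 2 partners, 1880 (75.8%) had all 3 and 41 (1.65%) had none.

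The MES samples were E14Tg2A cells differentiated with BMP4, typically at 0.1 to 0.3 ng/ml, and were probed for Mel18, Ring1b, Cbx2 and RYBP. The ESC sample was the undifferentiated E14Tg2A line, kept in 2i medium with LIF and probed for Mel18 with the same antibody lot. No genetic change or knockdown was named in the labels of these 5 samples, and each chromatin sample was precipitated with 5 ug of antibody. Each list came from 1 sample, so no difference between lists has a replicate check, and cell identity was not checked by markers because no RNA values were used here.

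Polycomb repressive complex 1 (PRC1) is a family of chromatin complexes that ubiquitinate histone H2A and keep developmental genes silent. Mel18, also named Pcgf2, is one of several PCGF subunits that can pair with Ring1b, the RING-type E3 ligase at the catalytic core. Cbx2 belongs to canonical PRC1, where its chromodomain can bind the H3K27 methylation laid down by PRC2. RYBP belongs to variant PRC1 and is held to exclude a CBX subunit from the same complex, so peaks of Cbx2 and RYBP at 1 site can stand for different complexes or different cells.

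With the lists as deposited, Cbx2 was the partner missing most often. It alone was missing at 288 regions, which was 51.6% of the 558 (interval 47.4 to 55.8). RYBP alone was missing at 137 regions (24.6%, interval 21.0 to 28.3) and Ring1b alone at 26 (4.66%, interval 3.07 to 6.75). Among the 107 regions that lacked 2 partners, 62 had only Ring1b, 29 had only RYBP and 16 had only Cbx2. Regions described below as without Cbx2, without RYBP or without Ring1b lacked that partner alone, unless every pattern is named. Counting every pattern, 379 regions lacked Cbx2, 215 lacked RYBP and 71 lacked Ring1b.

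This order of partners turned when only high-scoring peaks were used. The Cbx2 list was the shortest, with 3600 peaks on chromosomes 1 to 19, against 7494 for RYBP and 8434 for Ring1b. With the 3679 highest-scoring peaks of every list, 98 regions lacked Cbx2 alone, 318 lacked RYBP alone and 73 lacked Ring1b alone. With the upper 50% of each list, which left the Cbx2 list the shortest, 120 regions lacked Cbx2 alone, 176 lacked RYBP alone and 7 lacked Ring1b alone. List length and score make-up change together in these settings. Read depth was not given, so the part that depth has in these counts was not tested.

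**Figure D1:**
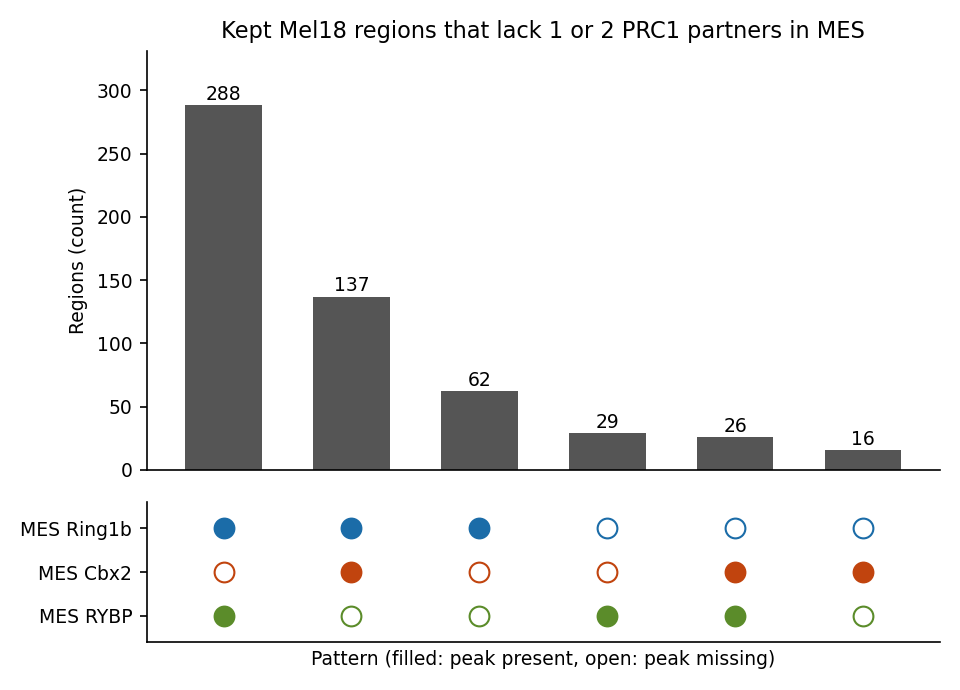
Bars give the number of kept Mel18 regions in each pattern of missing partners, and the dots under each bar show which MES subunits had a peak (filled) or none (open). The 288 regions without Cbx2 form the tallest bar, ahead of the 137 without RYBP, and the 3 patterns without Ring1b hold 71 regions together.

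The regions without a partner were short. Their median width was 2195 bp (quartiles 1757 and 2748 bp), against 3878 bp (2839 and 6017 bp) for kept regions with all 3 partners. Width spans every merged peak, so each partner peak can add to it. A wider region can also meet a partner peak more easily, so this contrast is partly set by the rule. The length under MES Mel18 peaks, which counts no partner bases, had a median of 1686.5 bp without a partner and 3073.5 bp with all 3. Only 20 of 558 (3.58%) spanned 5 kb or more, compared with 629 of 1880 (33.5%) of those with all 3. Most, 481 of 558 (86.2%), held 1 MES Mel18 peak and 1 ESC Mel18 peak, against 61.6% of the regions with all 3. The 137 regions without RYBP were the widest pattern at a median of 2498 bp, and the 29 with only RYBP had a median of 1757 bp. These widths include the partner peaks, and Cbx2 peaks covered a median of 2248 bp in the regions without RYBP.

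Regions missing a partner were found on all 19 chromosomes. Their share of kept regions lay between 12.8% on chromosome 19 (12 of 94, interval 6.77 to 21.2) and 29.5% on chromosome 3 (43 of 146, interval 22.2 to 37.6). The intervals of these extremes did not overlap, whereas each of the other 17 chromosomes lay between 18.6 and 27.8%. The extremes were picked from 19 chromosomes, and the intervals make no allowance for that choice. No difference between chromosomes is read from them.

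Regions without a partner ranked below regions with all 3 for Mel18 in both states. Peaks were ranked by the authors' score within their own list, and the highest peak of each list stood for the region, with 0 for the lowest and 100 for the highest percentile. Over the 558 regions the median percentile was 35.3 for MES Mel18 (interval 32.5 to 37.4) and 57.7 for ESC Mel18 (interval 55.2 to 60.0). The MES Mel18 list held 4165 peaks in all and the ESC Mel18 list 6593, so a percentile in one is not the same standing as that percentile in the other. In regions with all 3 partners the medians were 73.2 for MES Mel18 and 79.3 for ESC Mel18. The upper 50% of the MES Mel18 list held 132 of the 558 (23.7%), and the upper 50% of the ESC Mel18 list held 357 (64.0%).

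The gap between the states differed by the missing partner. Regions without Cbx2 stood at a median percentile of 29.8 in MES and 60.5 in ESCs, and the median difference within a region, MES minus ESC, was -31.3 points (order-statistic interval -35.4 to -27.5). Regions without RYBP stood at 51.7 in MES and 54.9 in ESCs, with a median difference of -2.50 points (interval -11.1 to 2.30). Without a RYBP peak within 10 kb, 97 of these regions had a median difference of -8.60 points (interval -15.8 to -1.61). Regions with all 3 partners had a median difference of -3.31 points (interval -4.19 to -2.43), and regions with both Mel18 peaks at the score pile-up of 3100 stand at -2.25 by construction. The MES Mel18 rank was below the ESC Mel18 rank in 260 of the 288 regions without Cbx2 (90.3%), in 75 of the 137 without RYBP (54.7%) and in 1240 of the 1880 with all 3 (66.0%). The regions without Cbx2 thus stood apart from both other groups in this difference.

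The size of that difference depended on how the peaks were ranked. When the 2479 kept regions were ranked among themselves in each state, so that both states had ranks over the same regions, the median difference was -16.5 points without Cbx2 (interval -20.5 to -11.9), 8.996 without RYBP (interval 0.403 to 15.6) and 0.212 with all 3 (interval -1.01 to 1.57). The medians were then 14.8 in MES and 30.2 in ESCs for regions without Cbx2, and 35.0 in MES and 23.6 in ESCs for regions without RYBP. Over all 558 regions they were 18.9 in MES and 26.8 in ESCs. The lower standing without Cbx2 was thus seen in both rankings at different sizes, while the difference without RYBP was below 0 in one and above 0 in the other.

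In the rarer patterns the MES rank in the whole list was also below the ESC rank at the median. The median difference was -24.4 points in the 62 regions with only Ring1b and -20.6 points in the 29 with only RYBP. It was -20.4 points in the 16 with only Cbx2, with a wide interval (-27.2 to 17.9), and -17.9 points in the 26 that lacked Ring1b alone. The 41 kept regions with no partner had a median difference of -19.8 points, and the intervals of these 5 groups all overlapped, so no order is given among them. With ranks among the kept regions the differences were smaller. The median was then -7.93 points with only Ring1b, -5.10 with only Cbx2, -4.03 with only RYBP and -2.40 where Ring1b alone was missing. The interval with only Ring1b was -14.1 to -1.65, whereas those of the other patterns given here ran from negative to positive values.

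**Figure D2:**
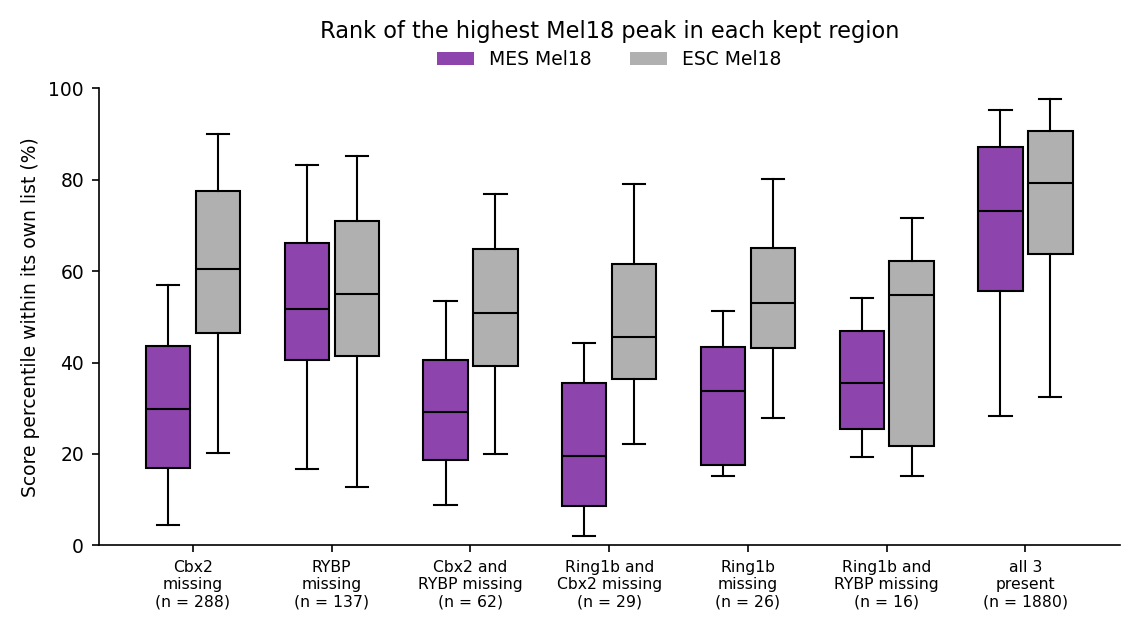
Boxes show the median and quartiles, with whiskers at the 5th and 95th percentiles of regions, of the score percentile of the highest Mel18 peak in MES (left of each pair) and in ESCs (right of each pair). The medians of the regions without Cbx2 are 29.8 in MES and 60.5 in ESCs, while those of the regions without RYBP are 51.7 and 54.9.

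By ranks in the whole lists, a MES Mel18 rank 20 points or more below the ESC rank was seen in 633 of all 2479 kept regions, a background of 25.5%. It was seen in 290 of the 558 regions missing a partner (52.0%, interval 47.7 to 56.2), in 189 of the 288 without Cbx2 (65.6%, interval 59.8 to 71.1) and in 31 of the 137 without RYBP (22.6%, interval 15.9 to 30.6). A MES rank 20 points or more above the ESC rank was seen in 8.55% of kept regions. It was seen in 26 of the 137 regions without RYBP (interval 12.8 to 26.6%) and in 11 of the 288 without Cbx2 (3.82%, interval 1.92 to 6.73). The share without RYBP is thus near the background for lower ranks, and its interval lies above the background for higher ranks.

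Ranking by ESC Mel18 left a difference of the same direction between regions without Cbx2 and regions with all 3 in every quartile. The ESC rank is 1 term of the difference, so holding it near fixed leaves mainly the gap in MES rank. This ranking is therefore no separate check of that gap. In the highest ESC Mel18 score quartile the median difference was -45.0 points in 87 regions without Cbx2, -19.4 in 24 without RYBP and -4.77 in 1089 with all 3. In the third quartile it was -34.9 in 117 regions without Cbx2, -12.7 in 57 without RYBP and -4.25 in 541 with all 3. In the second quartile the values were -9.64 without Cbx2 (58 regions), 12.4 without RYBP (44 regions) and 9.43 with all 3 (180 regions). In the lowest quartile they were 3.23 without Cbx2 (26 regions), 35.3 without RYBP (12 regions) and 33.6 with all 3 (70 regions). Within the 3 lower MES Mel18 quartiles regions without Cbx2 lay nearer to regions with all 3. The MES rank is likewise 1 term of the difference, so holding it near fixed removes most of the gap in MES rank between these 2 groups by construction. Regions without RYBP did not come nearer to regions with all 3, and lay above them in each of these 3 quartiles. The median difference was -43.0 points without Cbx2, -30.1 without RYBP and -37.3 with all 3 in the lowest MES quartile. It was -27.1, -13.3 and -19.8 points in the second and -17.1, 4.17 and -7.88 points in the third, in the same order of groups. The highest MES quartile held 3 regions without Cbx2, at a median of 33.9 points, against -2.25 with all 3.

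Over all MES Mel18 ranks together, the length covered by Mel18 peaks was also lower, relative to ESCs, without Cbx2 than with all 3 partners. In the 558 regions the length under MES Mel18 peaks, divided by that under ESC Mel18 peaks, had a median of 1.14 (interval 1.091 to 1.20), against 1.27 (1.24 to 1.29) in regions with all 3 partners. Without Cbx2 the median was 1.04 (interval 0.983 to 1.098), at 1715 bp in MES and 1530 bp in ESCs. Without RYBP it was 1.32 (interval 1.23 to 1.49), at 1873 bp in MES and 1288 bp in ESCs. Without Ring1b alone it was 0.970 (interval 0.751 to 1.14), at 1252 bp in MES and 1215 bp in ESCs. In the patterns that lacked 2 partners it was 1.21 with only Ring1b, 1.28 with only RYBP and 1.19 with only Cbx2. Their intervals were 1.04 to 1.46, 0.987 to 1.64 and 0.809 to 1.92, in the same order. These overlapped each other and the interval without Ring1b alone, which also contained that without Cbx2. No order is therefore given among these patterns. With the widest peak of each list in place of the covered length, the median was 1.06 without Cbx2, 1.32 without RYBP and 1.36 with all 3, so regions without RYBP then lay below complete regions. In the 3 lower MES Mel18 quartiles the covered-length contrast was not kept. From the lowest up, the median was 1.02, 1.01 and 1.24 without Cbx2, against 0.982, 1.06 and 1.21 with all 3, with overlapping intervals. Within ESC Mel18 quartiles it stayed lower without Cbx2. There it was 1.74, 1.44, 1.02 and 0.878 from lowest to highest, against 2.24, 1.69, 1.28 and 1.21 with all 3.

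MES Mel18 peaks covered at least 1.5 times the ESC length in 753 of 2479 kept regions, a background of 30.4%. They did so in 54 of the 137 regions without RYBP (39.4%, interval 31.2 to 48.1), in 61 of the 288 without Cbx2 (21.2%, interval 16.6 to 26.4) and in 2 of the 26 without Ring1b. The reverse, an ESC length at least 1.5 times the MES length, held for 5.61% of kept regions. It held for 38 of the 288 regions without Cbx2 (13.2%, interval 9.51 to 17.7), for 5 of the 137 without RYBP (3.65%) and for 5 of the 26 without Ring1b (19.2%, interval 6.55 to 39.4). MES Mel18 peaks reached beyond the ESC peaks on both sides in 51.1% of regions without RYBP, in 33.3% of those without Cbx2 and in 57.6% of those with all 3.

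**Figure D3:**
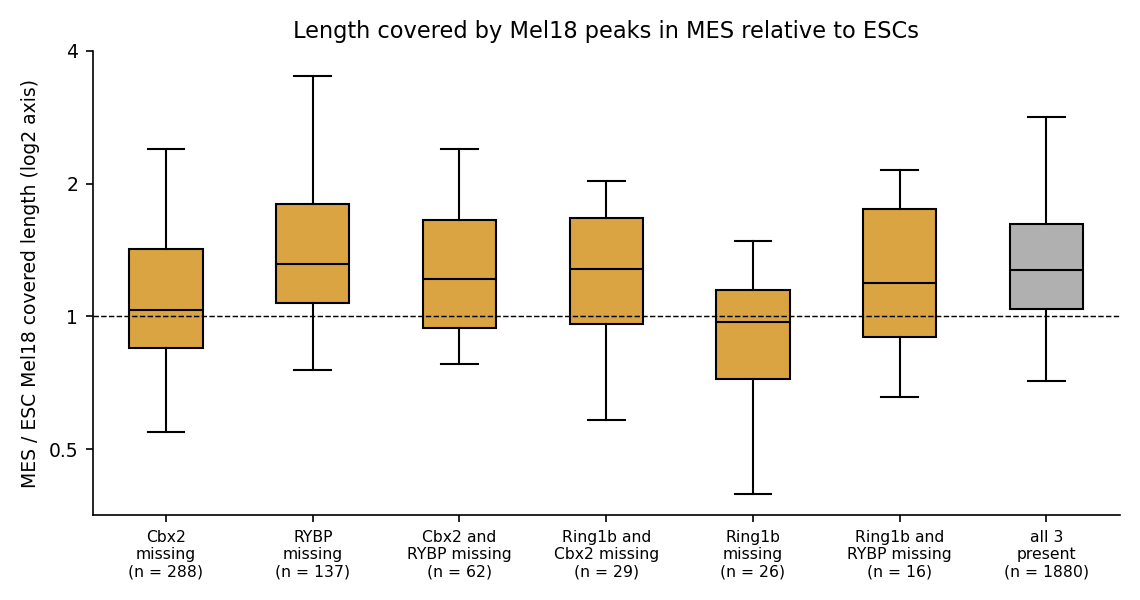
Boxes show the median and quartiles, with whiskers at the 5th and 95th percentiles of regions, of the length covered by MES Mel18 peaks divided by that covered by ESC Mel18 peaks, on a log2 axis with a dashed line at equal length. The regions without Cbx2 centre at 1.04 and those without Ring1b at 0.970, below the 1.27 of regions with all 3 partners, while those without RYBP centre at 1.32.

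How often a partner was missing followed MES Mel18 rank, and most steeply for Cbx2. In the lowest MES Mel18 score quartile, 187 of 289 kept regions (64.7%, interval 58.9 to 70.2) lacked 1 or 2 partners, and in the highest quartile 21 of 910 did (2.31%, interval 1.43 to 3.51). Cbx2 was missing, with another partner present, at 55.0% of kept regions in the lowest quartile, 32.0% in the second, 6.28% in the third and 0.330% in the highest. RYBP was missing at 14.9, 15.8, 9.49 and 1.87% of the same quartiles. The 2 subunits thus changed places: Cbx2 was missing more often than RYBP in the lower quartiles and less often in the third, where 47 regions lacked Cbx2 and 71 lacked RYBP. Ring1b was missing at 9.69, 6.77, 0.802 and 0.110%.

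Ranked by ESC Mel18 the share without Cbx2 fell less steeply, and in proportion it fell less than the shares without RYBP or Ring1b. Cbx2 was missing at 26.8, 27.0, 19.6 and 7.96% of kept regions from the lowest to the highest quartile, RYBP at 17.4, 19.9, 11.8 and 2.55%, and Ring1b at 7.97, 6.53, 3.69 and 0.739%. The highest ESC quartile still held 126 regions without a partner, of which 97 lacked Cbx2, whereas the highest MES quartile held 21, of which 3 lacked Cbx2 and 17 lacked RYBP.

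**Figure D4:**
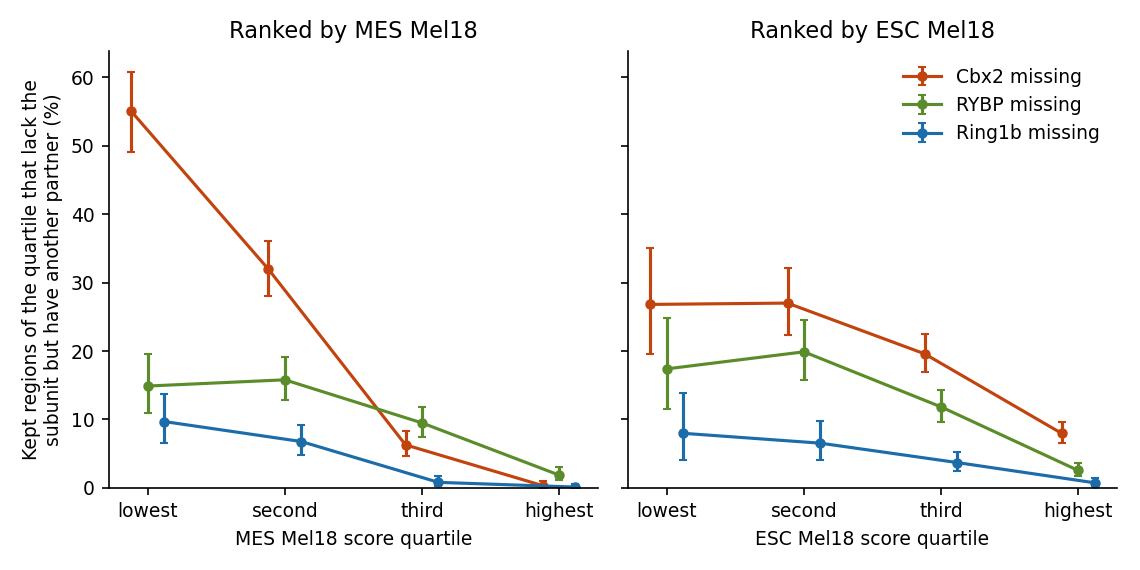
Points give the percentage of kept regions in each Mel18 score quartile of its own list that lacked Cbx2, RYBP or Ring1b while another partner was present, with exact 95% intervals, ranked by MES Mel18 (left) and by ESC Mel18 (right). The share without Cbx2 lies at 55.0% in the lowest MES quartile and at 0.330% in the highest, against 26.8% and 7.96% when regions are ranked by ESC Mel18.

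The subunits that were present mostly lay on the Mel18 peaks themselves, which merging by overlap favours. In regions without Cbx2, Ring1b peaks covered a median of 83.2% of the MES Mel18 bases and RYBP peaks 82.6% (interval 79.4 to 84.1). RYBP peaks covered 66.1% (interval 65.1 to 67.3) in regions with all 3 partners, where the Mel18 peaks were longer. In regions without RYBP, Cbx2 peaks covered 98.9% and Ring1b peaks 74.4% (interval 71.9 to 81.9), against 99.4 and 85.2% with all 3. Where Ring1b alone was missing, Cbx2 peaks covered a median of 100% of the Mel18 bases and RYBP peaks 72.7%, and the Cbx2 peaks were a median of 1.81 times as long as the Mel18 peaks. A present partner did not overlap the MES Mel18 peak itself in 3 regions for Ring1b and in 2 for RYBP.

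The present partners ranked lower in their own lists than at complete regions, although not at the bottom. Ring1b stood at a median percentile of 64.3 in regions without Cbx2, 61.1 in those without RYBP and 42.2 where it was the only partner, against 85.8 with all 3. RYBP stood at 58.2 without Cbx2, 53.9 without Ring1b and 39.6 as the only partner, against 77.6. Cbx2 stood at 49.0 without RYBP, 33.1 without Ring1b and 36.6 as the only partner, against 69.9. The lists differ in length, so ranks of different subunits are not set against each other.

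The distance to the nearest peak of the missing subunit differed between the partners. From regions without RYBP alone, the next RYBP peak lay at a median of 29.2 kb (interval 20.8 to 61.6), and 31 of 137 (22.6%) had one within 5 kb. From regions with all 3 partners, the next RYBP peak outside the region lay at 77.3 kb (interval 70.0 to 83.0), with 10.4% within 5 kb. From regions without Cbx2 alone, the next Cbx2 peak lay at 161 kb (interval 139 to 238), with 12 of 288 (4.17%) within 5 kb. From regions with all 3 it lay at 131 kb (interval 116 to 144), with 16.4% within 5 kb. For Ring1b the median was 177 kb in the 26 regions that lacked it alone, with a wide interval (30.5 to 518), against 56.9 kb.

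Regions without RYBP also lay nearer to complete regions. A complete region holds a RYBP peak by definition, so this is tied to the gaps to RYBP peaks above and is no separate result. Of the 137, 28 (20.4%) were within 5 kb of a kept region with all 3 partners, and so were 7 of the 288 without Cbx2 (2.43%). From 1 complete region to the next, 8.30% were that near. Such gaps change when 1 stretch is called as several peaks. With peaks within 1 kb joined 114 regions lacked RYBP alone and 286 lacked Cbx2 alone.

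**Figure D5:**
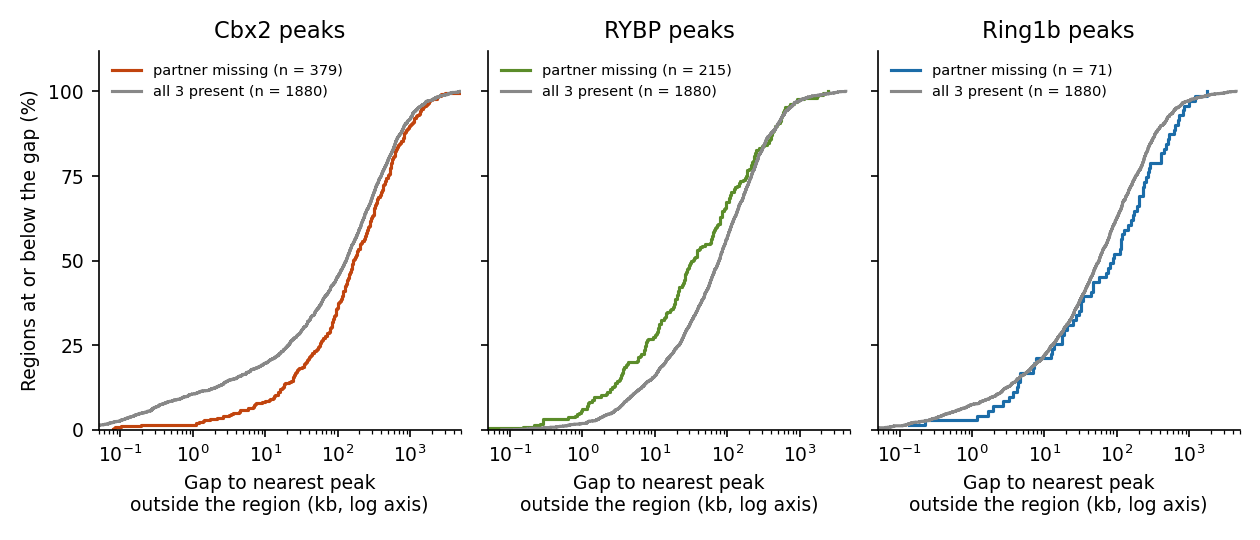
Curves give the cumulative percentage of regions whose nearest peak of a subunit outside the region lies at or below a gap in kb (log axis), for regions missing that subunit in any pattern (coloured) and for regions with all 3 partners (grey). For RYBP the coloured curve lies above the grey one up to 100 kb, with 43 of 215 regions against 195 of 1880 within 5 kb, and for Cbx2 it lies below, with 22 of 379 against 308 of 1880.

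Of the 5 regions without RYBP that scored highest for MES Mel18, 2 lay on chromosome 9, and coordinates here are those of the mm9 build. The region chr9:89776077-89778723 reached the pile-up of MES Mel18 scores at 3100 (95.3rd percentile), against the 76.7th for ESC Mel18, with Ring1b at the 95.2nd and Cbx2 in the highest quartile of its list. It was the last of 3 neighbouring regions between 89762638 and 89778723 that all lacked RYBP, and its next RYBP peak was 23.8 kb away. In the middle one, chr9:89771443-89775469, MES Mel18 covered 3523 bp and ESC Mel18 845 bp. The region chr9:91303396-91306203 ranked at 88.9 for MES Mel18 and 48.8 for ESC Mel18, and MES Mel18 covered 3.51 times the ESC length.

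The others of the 5 lay on chromosomes 4, 13 and 6. At chr4:36896560-36900756 MES Mel18 stood at the 86.5th percentile and ESC Mel18 at the 92.5th, and the next RYBP peak lay 1723 kb away. At chr13:83876428-83880017 the ranks were 86.1 in MES and 11.1 in ESCs, and the covered lengths 3325 bp in MES and 688 bp in ESCs. At chr6:51128478-51136429, the widest region without RYBP at 7952 bp, the ranks were 85.8 in MES and 76.6 in ESCs and the next RYBP peak lay 3.20 kb away. Of these 5 regions, 4 ranked higher in MES than in ESCs, but they were picked by their MES score, which favours that direction.

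The regions without Cbx2 that scored highest for MES Mel18 included a run on chromosome 19. There chr19:37759579-37763794, chr19:37764511-37769375 and chr19:37769508-37774920 each held Mel18 in both states with Ring1b and RYBP, and the nearest Cbx2 peak to the last was 257 kb away. MES Mel18 ranked at 54.5, 68.5 and 78.9 in them, and ESC Mel18 at 81.4, 83.1 and 97.6. Ring1b ranked at 80.7, 81.9 and 91.5 there and RYBP at 84.8, 57.8 and 85.0, so all 3 carried high-ranking Ring1b without a Cbx2 peak.

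The other high-scoring regions without Cbx2 ranked higher in MES than in ESCs. At chr13:44824609-44826918 MES Mel18 stood at 81.1 and ESC Mel18 at 6.14, in peaks of 833 bp in MES and 682 bp in ESCs, with RYBP at 82.9 and Ring1b at 40.5. Its Ring1b peak overlapped neither Mel18 peak and joined the region through RYBP. At chr2:118373929-118376037 the ranks were 80.0 in MES and 46.1 in ESCs, and at chr4:155264883-155267194 67.1 in MES and 0.243 in ESCs. The nearest Cbx2 peaks to these 3 lay 943, 124 and 303 kb away. These regions run against the 260 of 288 with a lower Mel18 rank in MES, but they were picked by their MES score, which favours that direction. The ESC Mel18 scores of those on chr13 and chr4 were 52.7 and 50.1, near the lowest of that list (50.01).

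The regions without Ring1b alone included 1 long stretch and otherwise short sites. The stretch chr11:96110689-96219988 spanned 109300 bp, in which Cbx2 covered 108611 bp with 1 peak, RYBP 78075 bp with 27 peaks, MES Mel18 10404 bp with 2 peaks and ESC Mel18 73954 bp with 16 peaks. MES Mel18 thus covered 0.141 times the ESC length, the lowest ratio of all 558 regions, and the next Ring1b peak was 4.63 kb outside it. At chr5:128937465-128940027 MES Mel18 covered 2304 bp and ESC Mel18 1796 bp, and the next Ring1b peak was 518 kb away. At chr2:49642305-49644514 the lengths were 1261 bp in MES and 1866 bp in ESCs, and at chr1:15276157-15277986 1207 bp in MES and 1607 bp in ESCs. The fifth, chr18:37874169-37876492, lay 3.22 kb from a Ring1b peak, the smallest such gap in this pattern.

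Where Ring1b was the only partner, its own median rank was 42.2, and 3 of the 5 regions with the highest MES Mel18 score lay below that. At chr6:88851663-88853322, the highest-scoring of these 62 regions, MES Mel18 stood at 72.5 and ESC Mel18 at 28.9 while Ring1b stood at 23.3. At chr7:58880203-58883409 MES Mel18 covered 4.52 times the ESC length with Ring1b at 17.2, and at chr11:48666843-48669784 2.29 times with Ring1b at 17.6. At chr16:72027478-72029915 the Mel18 ranks were 57.0 in MES and 29.3 in ESCs, with Ring1b at 62.3. The region chr1:156051416-156053052 went the other way, at 53.4 in MES and 88.5 in ESCs, with Ring1b at 50.6.

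Cbx2 as the only partner was seen at 16 regions, the smallest pattern. The region chr2:116377927-116385698 held a Cbx2 peak of 7772 bp at the 89.2nd percentile, with MES Mel18 over 2392 bp and ESC Mel18 over 6754 bp. Its next RYBP peak lay 0.944 kb away and its next Ring1b peak 415 kb away. At chr12:34646454-34649830 the Mel18 ranks were 55.5 in MES and 20.5 in ESCs, and the next Ring1b and RYBP peaks lay 1.18 and 1.43 kb away. At chr17:81344914-81346034 both had peaks closer still, at 216 bp for RYBP and 223 bp for Ring1b. At chr17:35457255-35458642 the Mel18 ranks were 50.3 in MES and 61.5 in ESCs, and at chr3:35239339-35241270 46.8 in MES and 66.5 in ESCs.

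RYBP as the only partner was seen at 29 regions. In 0 of them (interval 0 to 11.9%) was the MES Mel18 rank 20 points or more above the ESC rank. That interval includes the 8.55% seen over all kept regions, so the 29 do not stand apart in this. The highest MES Mel18 rank among the 29 was 51.1, at chr3:5214788-5216366. There ESC Mel18 ranked at 50.7 and RYBP at 28.1, and Ring1b and Cbx2 peaks lay 1.65 and 1.75 kb away. At chr17:87361028-87363279 MES Mel18 ranked at 48.8 and ESC Mel18 at 36.5, with RYBP at 67.5. At chr12:47918231-47920707 the Mel18 ranks were 44.2 in MES and 44.3 in ESCs, and the next Ring1b and Cbx2 peaks both lay 1742 kb away. The regions chr10:18563790-18566021 and chr4:40419428-40420742 had MES Mel18 ranks of 40.1 and 39.8 and ESC Mel18 ranks of 29.9 and 55.7.

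Few regions owed their place to a narrow miss or a narrow hit. The smallest gaps to a missing partner were 49 bp to a RYBP peak at chr2:19832407-19833069, 80 bp to a Cbx2 peak at chr14:122861799-122866885, 135 bp to a Ring1b peak at chr8:90183495-90185834 and 153 bp to a RYBP peak at chr18:37890213-37891007. Within 1 kb lay 6 of the 379 missing Cbx2 peaks, 13 of the 215 missing RYBP peaks and 2 of the 71 missing Ring1b peaks. On the other side, partner peaks were set against whichever Mel18 peak, MES or ESC, they overlapped more. The smallest such overlap was 629 bp for Cbx2, at chr17:81344914-81346034, and 131 bp for RYBP, at chr13:44824609-44826918. For Ring1b it was 0 bp in that same region and 438 bp in the next, chr16:5884606-5886054. In 7 regions the MES and ESC Mel18 peaks did not overlap each other and were joined through a partner's peak.

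The mix of missing partners differed in part where Mel18 was found in 1 state only. Of 1087 regions with MES Mel18 and no ESC Mel18 peak, 414 (38.1%) had 1 or 2 partners. Cbx2 alone was missing at 137 of these (33.1%, interval 28.6 to 37.9), against 51.6% in kept regions, and 58 (14.0%, interval 10.8 to 17.7) had only Cbx2, against 2.87% (1.65 to 4.61) in kept regions. Of 2775 regions with ESC Mel18 and no MES Mel18 peak, 1016 had 1 or 2 partners. Cbx2 alone was missing at 546 of them (53.7%, interval 50.6 to 56.8), close to the 51.6% in kept regions. The patterns that lacked Cbx2 with another partner were more frequent than in kept regions. Only RYBP was present at 203 (19.98%), against 5.197% in kept regions, and only Ring1b at 200 (19.7%), against 11.1%. The intervals did not overlap in either pattern, so the closeness holds only for Cbx2 missing alone. RYBP alone was missing at 12 (1.18%, interval 0.612 to 2.05), against 24.6% in kept regions. The intervals cover counting only, and these shares set regions of the same 5 lists side by side with no test.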

How the data were processed

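The authors deposited 5 peak lists, 1 per ChIP-seq sample, with the start and end of each peak and 1 score. The peak names carry the tag of the MACS caller, per the deposited files, and the mm9 build, Bowtie and TopHat are named, per the submitters' processing notes. Versions, caller settings, controls and any pooling of samples are not given in the sources used here. No source states the scale of the deposited score; scores start at 50.0 and pile up at 3100 in all lists but RYBP, so they were used only as ranks within a list. Other samples of the 15 were not used here. Starts are given counted from 1.

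Peaks on chromosomes 1 to 19 that overlapped by 1 bp or more were merged, and bedtools 2.31.1 gave the same 11871 regions with 0 differing. Shares have exact Clopper-Pearson 95% intervals and medians exact order-statistic intervals. Both treat regions as independent and cover counting over regions only. Read depth is unknown. No test was made, because each list was 1 sample. The regions, lists and measures were chosen with earlier results of these data known. The regions named are the 5 with the highest MES Mel18 score in each of 6 patterns, with those nearest to the 1 bp rule and, chosen after their values were seen, the neighbours in 2 runs. No gene or sequence was assigned, because no annotation of this build was used. Alternatives are listed in the closing section. The code was tested on simulated data with 400 regions of known pattern, all 400 recovered. Software was scipy 1.17.1, pandas 2.3.3, numpy 2.4.6 and matplotlib 3.10.9 on Python 3.11.15.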

Additional observations from a re-analysis of the deposited data

How the results depend on the processing

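No paired analysis was possible because only 1 sample stood behind each list. The share of kept regions without 1 or 2 partners was 31.8% with the same number of highest-scoring peaks per list and 25.8% with the upper 50% of each list, against 22.5%. With equal numbers, Cbx2 alone was missing at 98 regions, RYBP alone at 318 and Ring1b alone at 73, and with the upper 50% Cbx2 alone at 120, RYBP alone at 176 and Ring1b alone at 7. The cause was not tested, since these settings change list length and score make-up together. The median MES to ESC Mel18 length was 1.23 over all regions missing a partner with the upper 50%, and 0.961 in those without Cbx2 with equal numbers. The median difference in rank without Cbx2 was -18.6 points with the upper 50%, against -0.0822 without RYBP and -2.25 with all 3. With ranks among the kept regions it was -16.5 points without Cbx2, 8.996 without RYBP and 0.212 with all 3. The difference without RYBP was -8.60 with no missing partner within 10 kb, -6.21 with peaks within 1 kb joined, -5.97 with 1 peak per Mel18 list and -5.88 with equal numbers. These 4 values lay inside the main interval, but their own intervals lay below 0. For regions missing a partner, all other values lay inside the main intervals or within 1.5 times the main count. The settings were 50% of the shorter peak required, peaks within 1 kb joined, partners on the MES Mel18 peak itself, X and Y included, partners within 1 kb counted, 1 peak per Mel18 list, no missing partner within 10 kb, and widest peaks. Complete regions moved outside theirs to a length ratio of 1.36 with widest peaks, 1.24 with 1 peak per list and 1.29 with the upper 50%, and to a rank difference of -6.34 with 1 peak per list, beside the values with the upper 50% and with ranks among the kept regions above. Ranks among the kept regions, the last 4 settings, and every alternative for regions without Cbx2 or RYBP separately, were added after the data were examined.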
